A study of Mus musculus with 9 samples.

Results

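The amino acid transporter families described here are 7 families of solute carriers, membrane proteins that move amino acids and a few related molecules across the cell surface or the lysosomal membrane. Members were all genes of the deposited expression table whose symbol begins with Slc1a, Slc3a, Slc6a, Slc7a, Slc36a, Slc38a or Slc43a followed by a digit. The rule uses no expression values, but it was chosen with earlier results of these data known. This gave 65 of the 35315 genes, of which 61 are transporter genes and 4 are neighbours whose symbols end in os (Slc36a1os, Slc36a3os, Slc6a19os and Slc7a6os). RNA was measured in the colon of wild-type C57BL/6J mice aged 8 weeks, in 3 groups with 3 libraries each. Control mice had normal drinking water, and no injection is listed for them. DSS mice drank 2.5% dextran sulfate sodium, a sulfated sugar polymer that damages the gut lining and causes colitis, over 7 days, and were given solvent intravenously on days 2, 4 and 6. GsMTx4 mice had the same DSS water and, on those same days, an intravenous dose of 10 mg/kg GsMTx4, a spider-venom peptide that inhibits mechanically gated cation channels. In DSS against Control, the DSS water and the solvent injections cannot be told apart. Nothing in the labels says that each library is its own mouse. The p-values therefore measure only the spread between these samples, which may be technical.

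The families differ in coupling and in location. Slc1a, Slc6a and several Slc38a carriers use the sodium gradient to pull amino acids into the cell, Slc36a carriers use protons, and Slc43a carriers let large neutral amino acids through without ion coupling. Most of the Slc7a carriers that exchange amino acids are light chains that reach the membrane only when bound to a heavy chain, Slc3a2 (CD98) or Slc3a1. In the colon, epithelial cells, dividing cells and immune cells all use these carriers, glutamine is a main fuel of the epithelium, and shortage of amino acids is sensed through the ATF4 and mTORC1 pathways.

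Values are FPKM, fragments scaled to transcript length and library size, so levels can be set side by side between genes. FPKM sums ran from 349125 to 440935 per library, and 12830 to 14036 genes reached 1 FPKM. The tissue label was checked against markers. The colonic epithelial genes Krt20 (425 to 950 FPKM) and Car1 (73.4 to 731 FPKM) were high in every library, and the small-intestinal enzymes Lct and Sis stayed at or under 0.0440 FPKM. Fabp6, an ileal bile acid carrier, was highest in Control 1 (56.8 FPKM), DSS 2 (66.1 FPKM) and GsMTx4 3 (126 FPKM), against 8.21 to 26.6 FPKM in the other libraries. Long transcripts also read lower against short ones in GsMTx4 3 (a median log2 difference of -0.45) and DSS 2 (-0.20) than elsewhere (-0.03 to 0.21). Calls that are gained or lost without 1 library are given with that value.

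A few carriers made up most of the family signal. Summed over the 61 transporter genes, the level was 466, 582 and 550 FPKM in the Control libraries, 428, 361 and 431 FPKM in DSS, and 697, 658 and 452 FPKM in GsMTx4. On these unscaled sums every DSS library lay below every Control and GsMTx4 library. As a share of each library's FPKM sum, which is largest in GsMTx4 3, the values were 0.129% to 0.166% in Control, 0.0921% to 0.118% in DSS, and 0.199%, 0.185% and 0.102% in GsMTx4, so GsMTx4 3 lay among the DSS libraries. The 3 most abundant members of each library held 54.3% to 72.9% of its sum. Over all 9 libraries the highest mean levels were those of Slc6a14 (165 FPKM), the creatine carrier Slc6a8 (116 FPKM), Slc36a1 (51.5 FPKM), the glutamine carrier Slc1a5 (31.8 FPKM) and Slc38a2 (20.1 FPKM), a sodium-coupled carrier of small neutral amino acids. Slc3a2, Slc38a10, Slc6a6 and Slc7a7 followed at 17.8, 14.7, 13.5 and 10.7 FPKM, and Slc43a3 had 9.84 FPKM. At the other end, 29 of the 61 transporter genes stayed under 1 FPKM in every library. The tissue is a mixture of cells, and a fall in a gene can come from fewer cells of a type or from less RNA per cell, which cannot be told apart here.

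**Figure D1:**
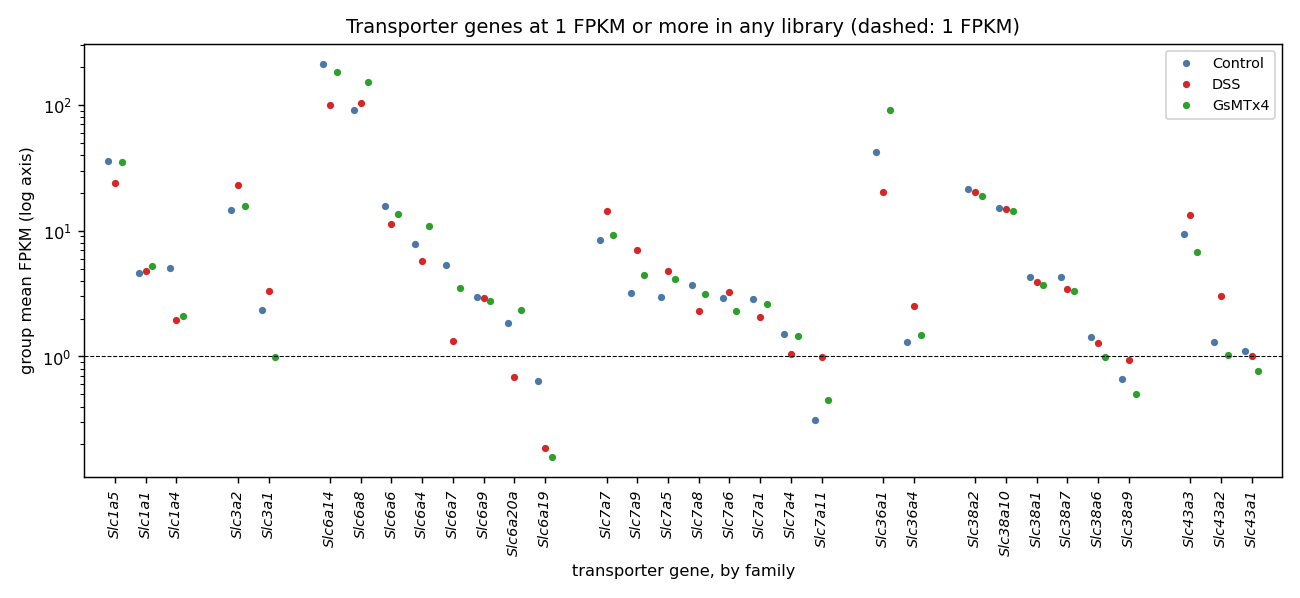
Group mean level of the 32 transporter genes that reached 1 FPKM in at least 1 library (horizontal axis, by family) in FPKM on a log axis, with 1 point per group of 3 libraries and a dashed line at 1 FPKM. Slc6a14, Slc6a8 and Slc36a1 have the highest levels.

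For testing, a gene had to reach 1 FPKM in at least 3 of the 9 libraries, and log2(FPKM + 1) was compared with limma. Fold changes below are on that scale, ± SE, and adjusted p-values are limma's with Benjamini-Hochberg adjustment over the 14360 genes that passed this filter. The filter left 29 of the 61 transporter genes. None of the 29 passed it through the libraries of 1 group only, and 21 were at 1 FPKM or more in all 9 libraries.

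In DSS against Control, Slc3a2 and Slc7a7 rose and Slc6a14 and Slc6a7 fell at an adjusted p under 0.05. These are 2 higher and 2 lower of 29, beside 6.41% higher and 10.7% lower among all tested genes, so the share of transporter genes that passed (13.8%) was near the background of 17.1%. In GsMTx4 against DSS, Slc36a1, Slc6a20a and Slc6a8 rose and Slc3a2 and Slc43a2 fell. These are 3 higher and 2 lower of 29 (17.2%), beside 6.66% higher, 5.62% lower and 12.3% in all among tested genes. No transporter gene passed in GsMTx4 against Control, where 0.188% of tested genes were called higher and 0.0487% lower. There, limma's unadjusted p was under 0.05 for 3 of the 29, Slc36a1 and Slc6a8 with higher and Slc1a4 with lower values in GsMTx4.

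The median log2 fold change of the 29 genes was -0.09 in DSS against Control (-0.17 over all tested genes), -0.03 in GsMTx4 against DSS (0.07 over all) and -0.16 in GsMTx4 against Control (-0.08 over all). The groups did not overlap for 13 of 29 genes in DSS against Control, 7 higher and 6 lower, where this held for 47.1% of tested genes (13.5% higher, 33.6% lower). The same was true of 10 of 29 in GsMTx4 against DSS, 5 each way, beside 30.3% of tested genes (17.5% and 12.8%). In GsMTx4 against Control it was 5 of 29, 3 higher and 2 lower, beside 19.6% (5% and 14.6%).

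The counts of DSS against Control depended on the scaling of the libraries. With median-of-ratios scaling 5 transporter genes rose and 2 fell, with quantile normalization 6 rose and 3 fell, and with rescaling to a common sum (TPM) 0 rose and 2 fell. Those scalings moved the median of all tested genes by 0.14, 0.11 and -0.11 on the log2 scale, and the share of all calls that were higher went from 37.4% to 58.6%, 50.1% and 27.5%. TPM also moved the median of all genes in GsMTx4 against Control by -0.11. The calls further depended on single libraries. Without 1 library at a time, 0 to 4 transporter genes were higher and 0 to 4 lower in DSS against Control, and both counts reached 0 without Control 2. In GsMTx4 against DSS, 1 to 2 were higher and 0 to 2 lower. The count of higher genes was 1 without Control 2, DSS 2, DSS 3 or GsMTx4 2, and that of lower genes was 0 without Control 2, Control 3, DSS 3 or GsMTx4 3. Without Control 1, DSS 2 and GsMTx4 3 together, the libraries with the highest Fabp6 of their groups, 1 rose and 3 fell in DSS against Control, and 2 rose and 1 fell in GsMTx4 against DSS. With no filter on low values, Slc3a2 in both comparisons and Slc36a1 kept their calls, and Slc7a7, Slc6a14, Slc6a7, Slc6a20a, Slc6a8 and Slc43a2 lost theirs (adjusted p = 0.0539 to 0.102 by limma). With only the compared groups in the fit, Slc3a2, Slc6a20a, Slc6a8 and Slc43a2 lost their calls in GsMTx4 against DSS (0.0775 to 0.143). That fit also called Slc43a3 lower there (adjusted p = 0.0273 by limma). In DSS against Control it newly called Slc36a1 (0.0113) and Slc1a4 (0.0399) lower and Slc43a2 (0.0326) higher.

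**Figure D2:**
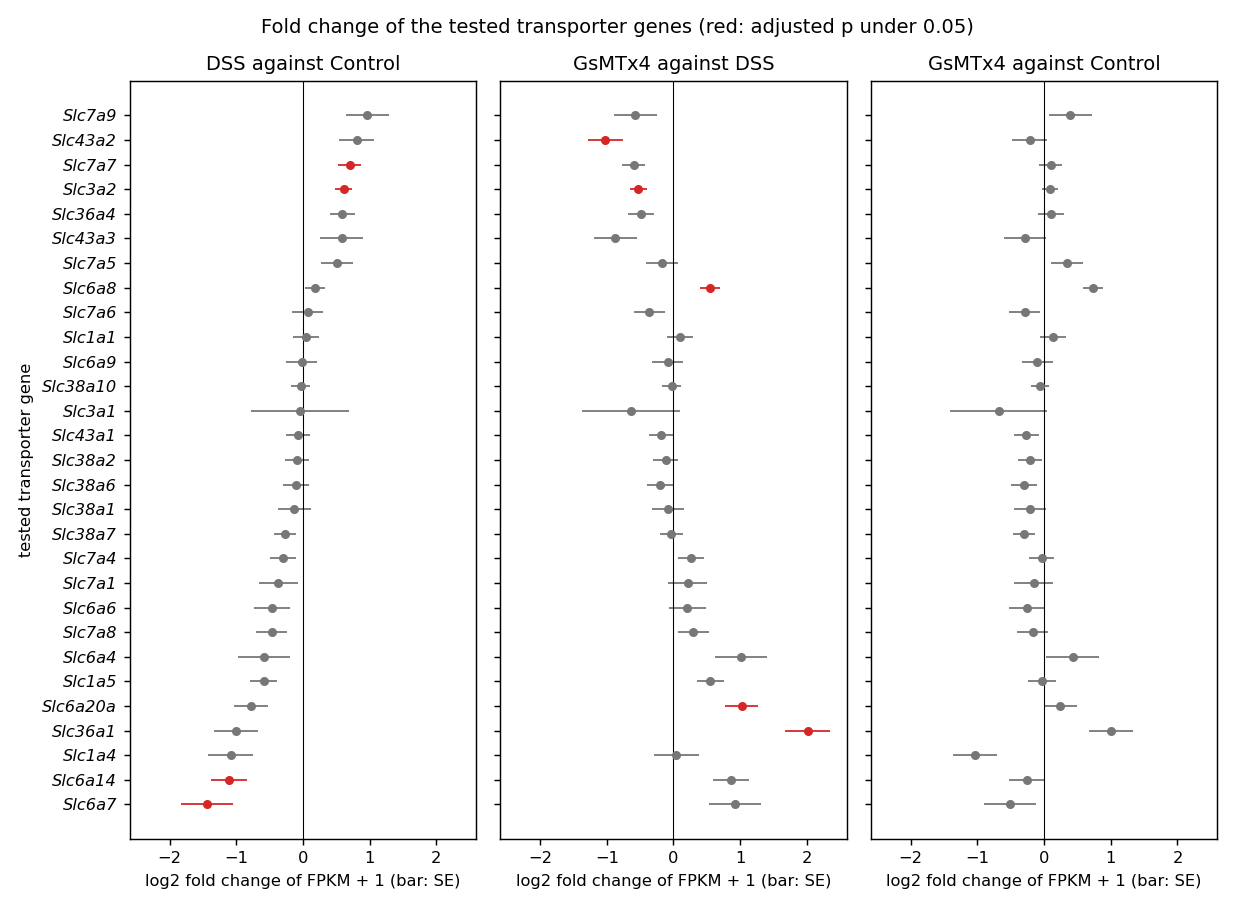
Log2 fold changes on the log2(FPKM + 1) scale (horizontal axis) for the 29 tested transporter genes in the 3 comparisons, with bars for the SE and red for an adjusted p under 0.05. In DSS against Control 4 genes passed, in GsMTx4 against DSS 5, and in GsMTx4 against Control 0.

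Slc36a1 carries small neutral amino acids together with protons, at the lysosome and at epithelial surfaces. It lies on chromosome 11 from 55204350 to 55236330 on the plus strand of GRCm38 (ENSMUSG00000020261). It had 34.8, 45.2 and 45.9 FPKM in Control 1 to 3, 17.2, 24.1 and 19.9 FPKM in DSS 1 to 3, and 130, 99.3 and 46.4 FPKM in GsMTx4 1 to 3. The 3 groups did not overlap: every DSS library was under every Control library, and every GsMTx4 library was above them, with GsMTx4 3 just over the highest Control.

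Slc36a1 rose in GsMTx4 against DSS by 2.01 ± 0.33 on the log2 scale, a 4.03-fold difference (adjusted p = 0.00788 by limma), and ranked 135 of 14360 tested genes by the size of the change. This call held under each of the other settings and without each library in turn, where the log2 fold change ran from 1.70 to 2.44 and the highest adjusted p was 0.0396. In DSS against Control the difference was -1.01 ± 0.33 (adjusted p = 0.0650), with an adjusted p of 0.0413 without GsMTx4 1 and 0.00824 without GsMTx4 3. In GsMTx4 against Control it was 1.003 ± 0.33 (adjusted p = 0.361), with 1.43 and an adjusted p of 0.0340 without GsMTx4 3. The longest annotated transcript of Slc36a1 has 5264 bases, and GsMTx4 3, its lowest library in the group, is the library where long transcripts read lowest against short ones. In DSS 2, the next lowest by that measure (-0.20), Slc36a1 had its highest DSS value, 24.1 FPKM. The part of transcript length in these values was not tested.

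The stretch before the Slc36a1 start is shown because this gene had the largest called change among the carriers, and because it holds the letters CACGTG, the E-box read by the lysosomal regulator TFEB among many other factors. RefSeq gives the start used here on GRCm38.p6, plus strand, and the stretch is chr11:55204220-55204339, written 5′ to 3′ up to the base before the start, with capitals at the match.
Slc36a1: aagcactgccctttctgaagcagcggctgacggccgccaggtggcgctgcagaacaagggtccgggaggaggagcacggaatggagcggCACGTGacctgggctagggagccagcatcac
The match in capitals begins 31 bases before the start, and a further CACGTG begins 3 bases before it and runs over the start. This motif was looked up after the Slc36a1 stretch had been read. CACGTG, which reads the same on both strands, was found in 7.15% of 32851 RefSeq windows of 300 bases (250 before and 50 after a start). Counted by gene, 8.09% of all genes had it in at least 1 window, as did 9 of the 49 member genes that had a window (18.4%). Among the tested members with a window it was 3 of 22 (13.6%). A match is a description of the letters and not evidence of a bound site.

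Slc36a4, a relative with high affinity for proline and tryptophan, did not pass. It had 1.13, 1.37 and 1.42 FPKM in Control, 1.84, 2.36 and 3.40 FPKM in DSS, and 1.76, 1.66 and 1.06 FPKM in GsMTx4. The DSS libraries were above all libraries of both other groups, with log2 differences of 0.59 ± 0.19 from Control (adjusted p = 0.0616) and -0.49 ± 0.19 in GsMTx4 against DSS (adjusted p = 0.123; -0.32 without DSS 3). Against Control it passed without DSS 1 (adjusted p = 0.0445) or GsMTx4 3 (0.0465). The lowly expressed Slc36a2 reached 0.310 to 0.746 FPKM in DSS and 0.0585 to 0.162 FPKM in Control, and was outside the test. With no filter on low values, it differed by 0.47 ± 0.12 in DSS against Control (adjusted p = 0.0656 by limma). In GsMTx4 against DSS the difference was -0.33 ± 0.12 (adjusted p = 0.197).

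Slc6a14 takes up neutral and cationic amino acids with sodium and chloride. It was the most abundant of the 61 genes in every library except DSS 2 and GsMTx4 3, where Slc6a8 was higher. It lies on chromosome X from 21714896 to 21742355 on the plus strand (ENSMUSG00000031089). It had 183, 250 and 207 FPKM in Control, 113, 69.4 and 118 FPKM in DSS, and 204, 217 and 126 FPKM in GsMTx4. Every DSS library was below every Control and every GsMTx4 library, and GsMTx4 3 was close to the DSS libraries.

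Slc6a14 fell in DSS against Control by 1.11 ± 0.27 on the log2 scale, from 213 ± 33.5 to 99.99 ± 26.6 FPKM (SD, n = 3; adjusted p = 0.0246 by limma). The adjusted p was 0.0504 without Control 1, 0.0945 without Control 2, 0.0714 without Control 3 and 0.0674 without DSS 2. In GsMTx4 against DSS the difference was 0.86 ± 0.27 (adjusted p = 0.0703), which passed without GsMTx4 3 (0.0325), and in GsMTx4 against Control it was -0.25 ± 0.27, or -0.00787 without GsMTx4 3. Its share of the summed transporter level was 37.6% to 42.9% in Control, 19.2% to 27.3% in DSS and 27.9% to 33.0% in GsMTx4.

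**Figure D3:**
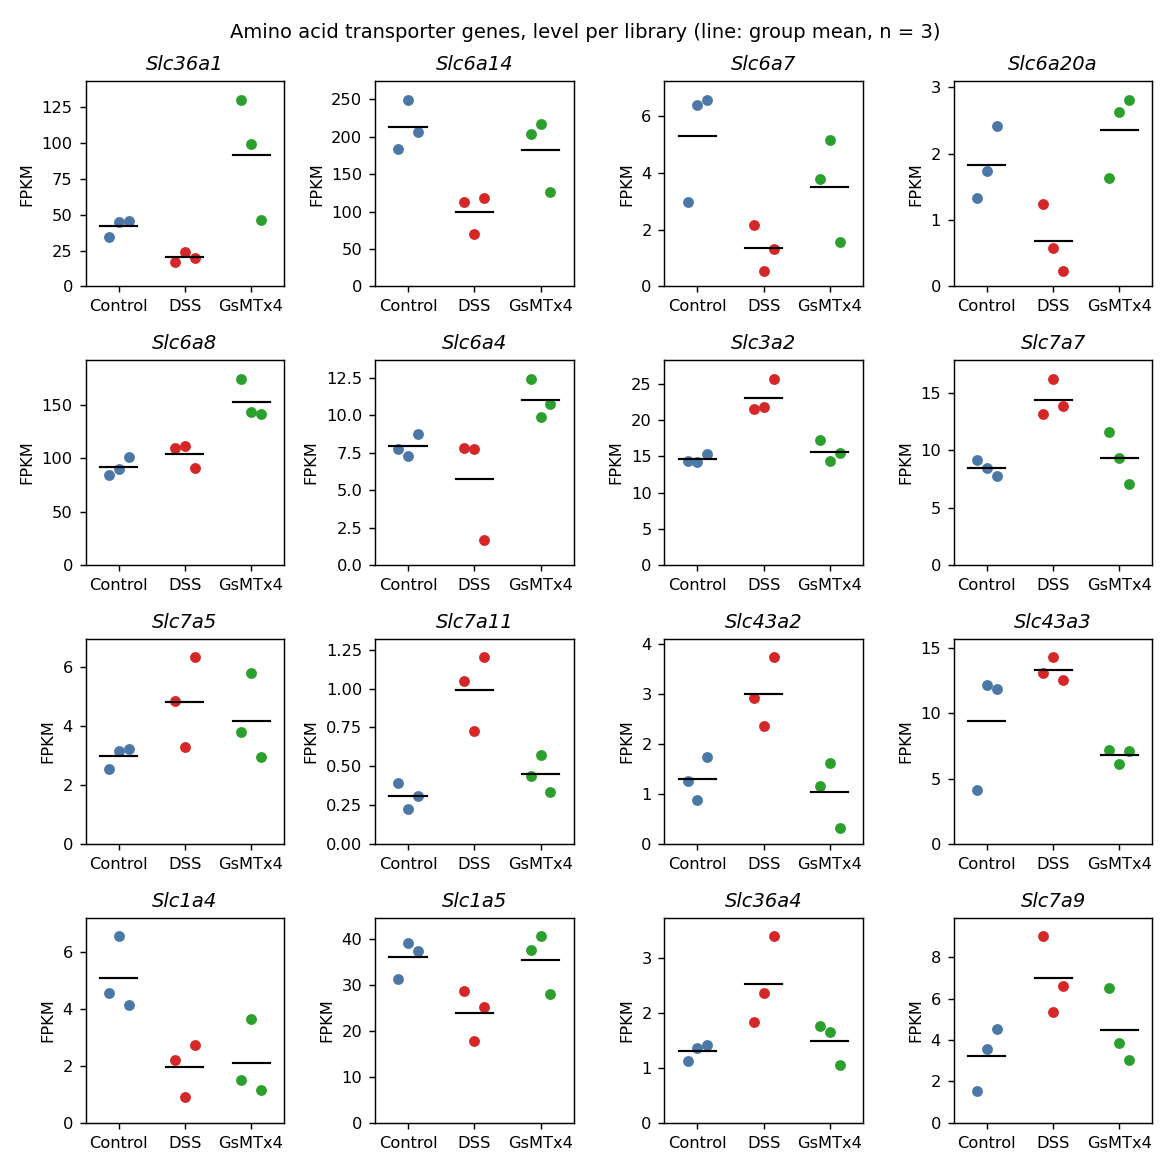
FPKM of selected transporter genes in each library, with 1 point per library and a line at the mean of the 3 libraries of each group, each panel on its own linear axis from 0. Slc6a14 is lower in all 3 DSS libraries, and Slc36a1 reaches 130 FPKM in GsMTx4 1.

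Slc6a7 and Slc6a20a carry proline and related imino acids. Slc6a7 had 2.98, 6.40 and 6.59 FPKM in Control, 2.17, 0.526 and 1.31 FPKM in DSS, and 3.80, 5.18 and 1.58 FPKM in GsMTx4. All DSS libraries were below all Control libraries, whereas DSS and GsMTx4 overlapped through GsMTx4 3. Slc6a7 fell in DSS against Control by 1.44 ± 0.39 (adjusted p = 0.0364 by limma), and lost the call without Control 2 (0.122), Control 3 (0.115), DSS 2 (0.107) or DSS 3 (0.0763). Its difference in GsMTx4 against DSS was 0.92 ± 0.39 (adjusted p = 0.152).

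Slc6a20a had 1.34, 1.73 and 2.42 FPKM in Control, 1.24, 0.572 and 0.236 FPKM in DSS, and 1.64, 2.62 and 2.81 FPKM in GsMTx4. Its DSS libraries lay below all others, with DSS 1 close to Control 1. Slc6a20a rose in GsMTx4 against DSS by 1.02 ± 0.25 (adjusted p = 0.0324 by limma). The call was lost without Control 2 (0.0563), DSS 2 (0.0752), DSS 3 (0.0865), GsMTx4 2 (0.109) or GsMTx4 3 (0.0804). Against Control, the DSS libraries differed by -0.78 ± 0.25 (adjusted p = 0.0622, and 0.0312 without DSS 1). Its neighbour and near copy Slc6a20b was at 0 to 0.285 FPKM, and reads shared by the pair could have been split between them. Slc6a19, the main neutral amino acid carrier of the small-intestinal brush border, was outside the test. It reached 1 FPKM in Control 3 only (1.24 FPKM) and was at 0.0929 to 0.480 FPKM in the other 8 libraries. With no filter on low values, it differed by -0.41 ± 0.20 in DSS against Control (adjusted p = 0.308 by limma).

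The Slc6a family also holds carriers of other molecules. Slc6a8, which takes up creatine, had 84.4, 89.4 and 101 FPKM in Control, 110, 111 and 90.9 FPKM in DSS, and 174, 143 and 141 FPKM in GsMTx4. The GsMTx4 libraries were above all others, and Control and DSS overlapped. Slc6a8 rose in GsMTx4 against DSS by 0.55 ± 0.15, from 104 ± 11.3 to 153 ± 18.6 FPKM (SD, n = 3), with an adjusted p of 0.0490 by limma, just inside the threshold. The call was lost whichever 1 of the 9 libraries was left out, at adjusted p-values of 0.0528 to 0.125, and with TPM (0.102) or median-of-ratios scaling (0.126). The difference from Control was 0.73 ± 0.15 (adjusted p = 0.187).

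Slc6a4, the serotonin transporter, had 7.72, 7.28 and 8.74 FPKM in Control, 7.84, 7.73 and 1.70 FPKM in DSS, and 12.4, 9.86 and 10.7 FPKM in GsMTx4. The GsMTx4 libraries were above all others, but DSS 3 stood far below the other DSS libraries, and the difference of 1.01 ± 0.40 from DSS did not pass (adjusted p = 0.122) and was 0.45 without DSS 3. Enteric neuron markers summed to 17.1 FPKM in DSS 3 and to 2.10 to 5.55 FPKM in the other libraries. Enteric glia markers summed to 7.74 FPKM in DSS 3 and to 0.764 to 2.07 FPKM elsewhere. The enteroendocrine markers Chga (32.6 FPKM), Chgb (68.6 FPKM) and Tph1 (5.22 FPKM) were also highest in DSS 3, but Pyy (156 FPKM) was not. The part of these cells in the Slc6a4 value of DSS 3 was not tested. The taurine carrier Slc6a6 (8.18 to 18.0 FPKM) and the glycine carrier Slc6a9 (1.67 to 3.70 FPKM) overlapped between all groups.

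Slc3a2 is the heavy chain that carries most Slc7a light chains to the plasma membrane, and it lies on chromosome 19 from 8706882 to 8723369 on the minus strand (ENSMUSG00000010095). It had 14.3, 14.3 and 15.3 FPKM in Control, 21.5, 21.8 and 25.7 FPKM in DSS, and 17.2, 14.4 and 15.4 FPKM in GsMTx4. The DSS libraries were above all libraries of both other groups, which overlapped each other. Slc3a2 rose in DSS against Control by 0.61 ± 0.12, from 14.7 ± 0.591 to 23.0 ± 2.37 FPKM (SD, n = 3; adjusted p = 0.0122 by limma), and lost the call without Control 2 (0.0596) or with TPM (0.0504). In GsMTx4 against DSS, Slc3a2 fell by 0.53 ± 0.12 (adjusted p = 0.0280). That call was lost without Control 1 (0.0508), Control 2 (0.0582), Control 3 (0.0544), DSS 3 (0.0772), GsMTx4 2 (0.102) or GsMTx4 3 (0.0505), and with TPM (0.0656). GsMTx4 and Control differed by 0.09 ± 0.12 (95% confidence interval -0.19 to 0.37).

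Slc7a7, a light chain of Slc3a2 that exports cationic amino acids in exchange for neutral ones with sodium, lies on chromosome 14 from 54369442 to 54417780 on the minus strand (ENSMUSG00000000958). It had 9.15, 8.46 and 7.76 FPKM in Control, 13.1, 16.2 and 13.8 FPKM in DSS, and 11.5, 9.28 and 7.08 FPKM in GsMTx4. The DSS libraries were above all libraries of both other groups. Slc7a7 rose in DSS against Control by 0.70 ± 0.17 (adjusted p = 0.0255 by limma). The call was lost without Control 1 (0.0570), Control 2 (0.0835), Control 3 (0.0902), DSS 2 (0.0737) or DSS 3 (0.0524), and with TPM (0.0828). In GsMTx4 against DSS the difference was -0.60 ± 0.17 (adjusted p = 0.0531, and 0.0251 without GsMTx4 1). Slc7a7 is expressed by macrophages as well as by epithelium, and the summed level of 6 macrophage markers was 237 to 373 FPKM in Control, 619 to 723 FPKM in DSS and 370 to 455 FPKM in GsMTx4. Of those 6 markers 4 rose in DSS against Control and 2 fell in GsMTx4 against DSS. Lyz2 held most of the sum in every library, at 160 to 290 FPKM in Control, 494 to 593 FPKM in DSS and 282 to 342 FPKM in GsMTx4. Adgre1 (10.1 to 12.8 FPKM in DSS and 10.6 to 14.5 FPKM in GsMTx4), Cd14 and Mrc1 overlapped between DSS and GsMTx4, whereas Cd68 and Csf1r did not. The part of macrophage content in the Slc3a2 and Slc7a7 values was not tested.

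The other light chains of Slc3a2 did not pass. Slc7a5, which exchanges large neutral amino acids such as leucine, had 2.55, 3.16 and 3.23 FPKM in Control, 4.83, 3.27 and 6.31 FPKM in DSS, and 3.80, 5.77 and 2.93 FPKM in GsMTx4. Its DSS libraries were above all Control libraries, DSS 2 by a narrow margin, and the difference was 0.51 ± 0.24 (adjusted p = 0.164), or 0.33 without DSS 3. Slc7a8, a basolateral exchanger of neutral amino acids, had 2.44 to 4.97 FPKM in Control, 1.96 to 2.80 FPKM in DSS and 2.16 to 3.67 FPKM in GsMTx4, with a difference of -0.47 ± 0.23 in DSS against Control (adjusted p = 0.180), or -0.27 without Control 3. Slc7a6, which like Slc7a7 exchanges cationic for neutral amino acids, ranged from 1.83 to 4.58 FPKM and overlapped in all comparisons.

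**Figure D4:**
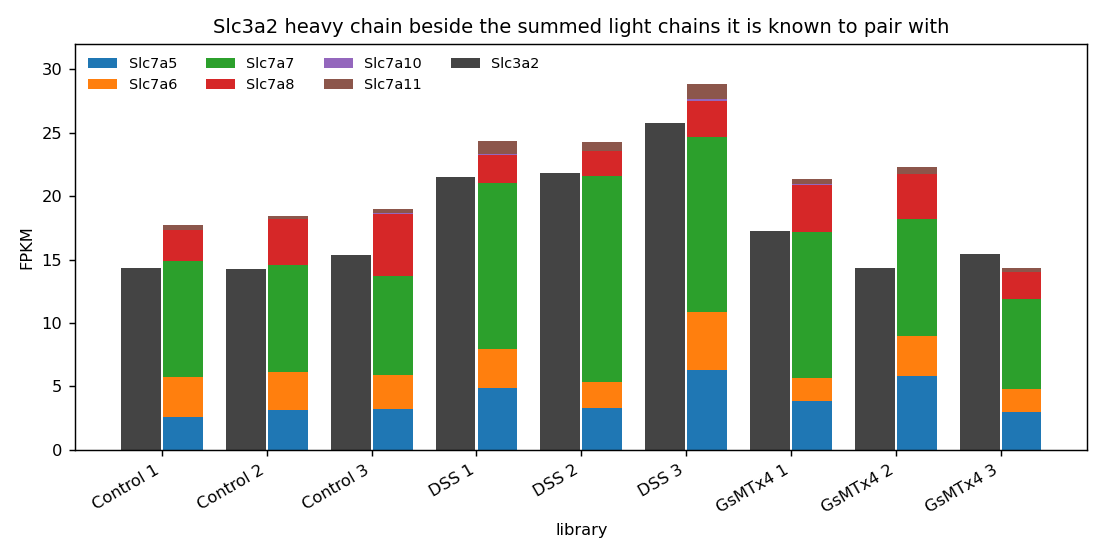
FPKM of the heavy chain Slc3a2 (dark bars) beside the stacked FPKM of its 6 light chain genes (coloured bars) in each of the 9 libraries. The 3 DSS libraries have the tallest bars of both kinds, at 21.5 to 25.7 FPKM of Slc3a2 and 24.3 to 28.9 FPKM of light chains. Slc7a7 is the largest part of the light chain bar in each library.

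Summed over the 6 light chain genes of Slc3a2 (Slc7a5, Slc7a6, Slc7a7, Slc7a8, Slc7a10 and Slc7a11), the level was 17.8, 18.4 and 19.0 FPKM in Control, 24.4, 24.3 and 28.9 FPKM in DSS, and 21.4, 22.3 and 14.4 FPKM in GsMTx4. The DSS sums were above all others, as those of Slc3a2 itself were. Slc7a7, which passed on its own, was the most abundant of these light chains in all 9 libraries, at 13.1 to 16.2 FPKM in DSS. The other light chains did not move together. In DSS 2, Slc7a6 (2.11 FPKM) and Slc7a8 (1.96 FPKM) were below every Control library, whereas Slc7a5 and Slc7a11 were above every Control library.

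Slc7a11, the light chain that imports cystine in exchange for glutamate, reached 1 FPKM only in DSS 1 and DSS 3 and so was outside the test. It had 0.394, 0.228 and 0.312 FPKM in Control, 1.05, 0.727 and 1.201 FPKM in DSS, and 0.437, 0.570 and 0.338 FPKM in GsMTx4. All DSS libraries were above all others. With no filter on low values, where 33133 genes were tested, the difference of DSS from Control was 0.60 ± 0.12 (adjusted p = 0.0352 by limma) and that of GsMTx4 from DSS -0.45 ± 0.12 (adjusted p = 0.0979).

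The stretches before the starts of Slc7a11, Slc7a7 and Slc3a2 are shown because these genes of the heterodimer system had their highest levels in DSS, and because ATF4, the factor of the amino acid response, binds elements of the form TGATGNAA. They are on the minus strand of GRCm38.p6, at chr3:50443614-50443733, chr14:54417945-54418094 and chr19:8713898-8714017, from RefSeq. Each is written 5′ to 3′ up to the base before the RefSeq start, and capitals mark matches to TGATGNAA on either strand. The Slc3a2 stretch lies inside the gene span given above (8706882 to 8723369), so it is not the region upstream of the whole gene. The Slc7a7 stretch lies beyond the gene end given above (54417780), and Slc7a7 has another RefSeq start.
Slc7a11: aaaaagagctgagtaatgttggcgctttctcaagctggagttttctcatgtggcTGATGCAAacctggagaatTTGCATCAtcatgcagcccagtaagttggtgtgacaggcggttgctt
Slc7a7: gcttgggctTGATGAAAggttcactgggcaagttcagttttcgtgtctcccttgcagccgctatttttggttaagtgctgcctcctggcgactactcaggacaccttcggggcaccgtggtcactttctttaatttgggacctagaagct
Slc3a2: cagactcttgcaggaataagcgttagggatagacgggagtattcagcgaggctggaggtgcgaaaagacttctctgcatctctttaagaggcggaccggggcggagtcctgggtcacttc
The matches of Slc7a11 begin 66 and 47 bases before the start, in opposite orientations. That of Slc7a7 begins 141 bases before the start, and another begins 1 base before it and runs over the start. The printed Slc3a2 stretch holds no match. TGATGNAA, searched on both strands, was in 3.97% of the 32851 RefSeq windows. By gene, it was in 4.51% of all genes and in 4 of the 49 member genes with a window (8.16%), namely Slc1a4, Slc6a21, Slc7a11 and Slc7a7. Of the 22 tested members with a window 2 had it (9.09%), Slc7a7 and Slc1a4. Slc1a4 went the other way, with lower values in DSS than in Control (-1.08 ± 0.34, adjusted p = 0.0553 by limma). The antioxidant element TGACNNNGC was in 12.4% of windows, in 14.0% of all genes and in 10 of the 49 (20.4%). Slc7a11, Slc7a7 and Slc3a2 were not among them. Of the 22 tested members with a window, 6 had it (27.3%).

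Slc3a1 and its light chain Slc7a9 together carry cystine and dibasic amino acids. Slc7a9 had 1.56, 3.59 and 4.51 FPKM in Control, 9.004, 5.34 and 6.62 FPKM in DSS, and 6.52, 3.86 and 3.02 FPKM in GsMTx4. Its DSS libraries were above all Control libraries, and the difference of 0.97 ± 0.33 (0.64 without Control 1) did not pass (adjusted p = 0.0700). In GsMTx4 against DSS it was -0.57 ± 0.33 (adjusted p = 0.272), or -0.38 without GsMTx4 3. Slc3a1 varied within groups, at 0.429, 3.38 and 3.21 FPKM in Control, 0.659, 0.488 and 8.75 FPKM in DSS, and 0.714, 2.02 and 0.229 FPKM in GsMTx4, with overlap in every comparison. Of the cationic carriers that need no heavy chain, Slc7a1 had 2.49 to 3.15 FPKM in Control, 1.09 to 2.73 FPKM in DSS and 1.24 to 3.56 FPKM in GsMTx4. Slc7a2 stayed at 0.164 to 0.527 FPKM, and the related Slc7a4 at 0.728 to 1.82 FPKM.

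Within Slc1a, Slc1a4, an exchanger of alanine, serine and cysteine, had 4.55, 6.54 and 4.14 FPKM in Control, 2.20, 0.891 and 2.74 FPKM in DSS, and 1.51, 3.64 and 1.14 FPKM in GsMTx4. All Control libraries were above all libraries of both other groups. The difference was -1.08 ± 0.34 in DSS against Control (adjusted p = 0.0553, and 0.0327 without GsMTx4 2 or 0.0460 without GsMTx4 3) and -1.04 ± 0.34 in GsMTx4 against Control (adjusted p = 0.352), and GsMTx4 and DSS differed by 0.04 ± 0.34. Slc1a5, the glutamine exchanger, had 31.3, 39.2 and 37.5 FPKM in Control, 28.8, 17.9 and 25.2 FPKM in DSS, and 37.6, 40.6 and 28.02 FPKM in GsMTx4. Its DSS libraries were below all Control libraries, but neither the difference of -0.59 ± 0.21 in DSS against Control (adjusted p = 0.0772) nor that of 0.55 ± 0.21 in GsMTx4 against DSS (adjusted p = 0.108, and 0.36 on the log2 scale without DSS 2) passed. The glutamate carrier Slc1a1 ranged from 3.58 to 6.18 FPKM, with overlap between all groups.

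Slc43a2 and Slc43a1 let large neutral amino acids such as leucine pass by facilitated diffusion. Slc43a2 had 1.25, 0.889 and 1.74 FPKM in Control, 2.91, 2.36 and 3.73 FPKM in DSS, and 1.16, 1.62 and 0.319 FPKM in GsMTx4. Its DSS libraries were above all others. Slc43a2 fell in GsMTx4 against DSS by 1.02 ± 0.26 (adjusted p = 0.0384 by limma), a call kept only without GsMTx4 2 (0.0455) and lost without each of the other 8 libraries, at adjusted p-values up to 0.108. It was also lost with TPM (0.0748). The difference of DSS from Control was 0.80 ± 0.26 (adjusted p = 0.0650, and 0.0242 without GsMTx4 3). Its longest transcript has 7145 bases, and its lowest value was in GsMTx4 3, where long transcripts read lowest against short ones.

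Slc43a3, a purine base carrier of the same family, had 4.13, 12.2 and 11.9 FPKM in Control, 13.1, 14.3 and 12.5 FPKM in DSS, and 7.23, 6.14 and 7.10 FPKM in GsMTx4. All DSS libraries were above all others, and Control 1 stood below the other Control libraries. The differences were 0.58 ± 0.32 in DSS against Control (adjusted p = 0.220), but 0.13 without Control 1, and -0.87 ± 0.32 in GsMTx4 against DSS (adjusted p = 0.102). The latter passed without Control 1 (adjusted p = 0.00885). Slc43a1 was at 0.450 to 1.31 FPKM.

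No Slc38a gene passed in any comparison. Slc38a2, which is induced by amino acid shortage in many cells, had 23.2, 21.4 and 20.004 FPKM in Control, 21.1, 17.3 and 22.02 FPKM in DSS, and 19.7, 22.6 and 13.9 FPKM in GsMTx4, so the groups overlapped. Slc38a1, which takes up glutamine with sodium, ranged from 2.35 to 4.97 FPKM, and Slc38a10 from 12.7 to 17.2 FPKM. The lysosomal Slc38a7 had 3.85 to 4.58 FPKM in Control, 2.66 to 4.28 FPKM in DSS and 2.70 to 3.67 FPKM in GsMTx4, with each GsMTx4 library below each Control library. Slc38a6 was at 0.529 to 1.70 FPKM. Slc38a9, the lysosomal arginine sensor of mTORC1, reached 1 FPKM only in DSS 1 and DSS 3 (1.08 and 1.01 FPKM) and so was outside the test. It was at 0.719 FPKM in DSS 2 and at 0.428 to 0.751 FPKM elsewhere. With no filter on low values, it differed by 0.22 ± 0.12 in DSS against Control (adjusted p = 0.374 by limma). In GsMTx4 against DSS the difference was -0.37 ± 0.12 (adjusted p = 0.175).

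The 29 genes under 1 FPKM in every library included Slc1a2, Slc1a3, Slc1a6, Slc1a7, Slc36a2, Slc36a3, Slc38a3, Slc38a4, Slc38a5, Slc38a8, Slc38a11, Slc6a2, Slc6a3, Slc6a5, Slc6a11, Slc6a12, Slc6a13, Slc6a15, Slc6a16, Slc6a17, Slc6a20b, Slc6a21, Slc7a2, Slc7a3, Slc7a10, Slc7a13, Slc7a14 and Slc7a15. Many of them are known from brain, kidney or liver, among them the glial glutamate carriers Slc1a2 and Slc1a3 and the GABA carriers Slc6a11 and Slc6a13. None was listed at 0 in all 9 libraries. Of the 4 neighbours named os, 3 stayed under 1 FPKM, and Slc7a6os had 5.41 to 7.13 FPKM. By family, 3 of 7 Slc1a genes, 2 of 2 Slc3a, 7 of 20 Slc6a, 7 of 14 Slc7a, 2 of 4 Slc36a, 5 of 11 Slc38a and 3 of 3 Slc43a were tested.

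Genes that act with the carriers were counted from 4 lists, whose counts stand beside 6.41% higher and 10.7% lower among all tested genes in DSS against Control, and 6.66% and 5.62% in GsMTx4 against DSS. Of the amino acid response list, which holds Atf4 and Eif2ak4 beside targets of ATF4, 22 genes were tested. In DSS against Control 4 rose and 2 fell (median log2 fold change 0.10, against -0.17 over all tested genes), and in GsMTx4 against DSS 1 rose and 4 fell (median -0.33, against 0.07). Cebpb, a stress and inflammation transcription factor, rose in DSS by 1.41 ± 0.19 to 33.4 ± 7.43 FPKM (adjusted p = 0.00243 by limma) and fell in GsMTx4 against DSS by 1.74 ± 0.19 (adjusted p = 0.00183). Eif4ebp1, an mTORC1-controlled repressor of translation, rose by 1.23 ± 0.22 (adjusted p = 0.00725) and fell by 1.25 ± 0.22 (adjusted p = 0.00946). Cth, the enzyme that makes cysteine from cystathionine, went the other way: it fell in DSS by 1.71 ± 0.20 (adjusted p = 0.00154) and rose in GsMTx4 against DSS by 1.31 ± 0.20 (adjusted p = 0.00615). Neither Atf4 (0.06 ± 0.19, adjusted p = 0.838 by limma) nor Eif2ak4 (-0.27 ± 0.21, adjusted p = 0.389) passed in DSS against Control. Without Control 2 the list's count in DSS against Control was 3 in place of 6, and without GsMTx4 2 that in GsMTx4 against DSS was 3 in place of 5.

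Of 35 tested genes of nutrient sensing by mTORC1, 0 rose and 1 fell in DSS against Control, where 17.1% of all tested genes passed, and 1 rose and 1 fell in GsMTx4 against DSS, where 12.3% did. Unadjusted, 5 and 8 of the 35 had p under 0.05. Bmt2, the S-adenosylmethionine sensor, fell in DSS by 0.64 ± 0.11 (adjusted p = 0.00624 by limma) and rose in GsMTx4 against DSS by 0.39 ± 0.11 (adjusted p = 0.0480), and the leucine sensor relative Sesn1 fell there by 0.69 ± 0.19 (adjusted p = 0.0439). The count in GsMTx4 against DSS was 1 without Control 1 and 0 without any other library. Wdr59 (-0.55 ± 0.18, adjusted p = 0.0622) and Flcn (-0.49 ± 0.18, adjusted p = 0.0930) did not pass in DSS against Control, nor did Castor1, the arginine sensor, in GsMTx4 against DSS (-0.53 ± 0.18, adjusted p = 0.0826).

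Of 15 tested genes for other amino acid and peptide transporters and their partner proteins, 1 rose and 3 fell in DSS against Control (17.1% of all tested genes passed), and 2 rose and 0 fell in GsMTx4 against DSS (12.3%). The lysosomal cystine exporter Ctns fell in DSS by 0.75 ± 0.14 (adjusted p = 0.00945 by limma) and rose in GsMTx4 against DSS by 0.73 ± 0.14 (adjusted p = 0.0148). Rnf5, a ubiquitin ligase, fell in DSS by 0.64 ± 0.14 (adjusted p = 0.0159). Slc15a3, a lysosomal peptide carrier of immune cells, rose in DSS by 0.93 ± 0.21 (adjusted p = 0.0170), with -0.72 ± 0.21 in GsMTx4 against DSS (adjusted p = 0.0522). Without Control 2 or Control 3 the count in DSS against Control was 2 in place of 4, and that in GsMTx4 against DSS was 1 without Control 2, DSS 2, DSS 3, GsMTx4 2 or GsMTx4 3.

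Of 29 tested enzymes of glutamine, cystine, arginine and tryptophan metabolism, 1 rose and 11 fell in DSS against Control (median -0.34, against -0.17 over all tested genes), and 12 rose and 0 fell in GsMTx4 against DSS (median 0.36, against 0.07). Among all tested genes 6.41% were higher and 10.7% lower in the former comparison, and 6.66% and 5.62% in the latter. Cdo1, which oxidises cysteine, fell in DSS by 3.38 ± 0.38, from 18.4 ± 2.59 to 0.886 ± 0.436 FPKM (SD, n = 3; adjusted p = 0.0013 by limma), and rose in GsMTx4 against DSS by 3.07 ± 0.38 (adjusted p = 0.00291). Maoa, which breaks down serotonin, fell by 1.24 ± 0.16 (adjusted p = 0.00195) and rose by 1.34 ± 0.16 (adjusted p = 0.00238). Gpt2, the mitochondrial alanine transaminase, rose in GsMTx4 against DSS by 0.91 ± 0.12 (adjusted p = 0.00392). Nos2, the inducible nitric oxide synthase that uses arginine, rose in DSS by 4.57 ± 0.63, from 1.80 ± 0.561 to 65.6 ± 14.7 FPKM (adjusted p = 0.00274). The count in DSS against Control was 7 in place of 12 without Control 1 or Control 3, and that in GsMTx4 against DSS was 7 without DSS 1, 4 without DSS 2, 6 without DSS 3 and 5 without GsMTx4 2. Both comparisons use the DSS libraries, so a low or high DSS value enters them with opposite sign. None of the 4 lists had a gene past the threshold in GsMTx4 against Control, where limma's unadjusted p was under 0.05 for 5, 2, 4 and 2 genes in the order given.

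Some marker lists of other cells differed between groups, whereas no T cell, goblet cell or smooth muscle marker passed in any comparison. Crypt stem and dividing cell markers summed to 39.5 to 61.9 FPKM in Control, 10.4 to 24.6 FPKM in DSS and 23.0 to 62.8 FPKM in GsMTx4, beside the fall of Slc6a14 and Slc6a7 in DSS. By library, the crypt marker sums were 24.6, 10.4 and 17.5 FPKM in DSS 1 to 3, with Slc6a14 at 113, 69.4 and 118 FPKM. In GsMTx4 1 to 3 they were 23.0, 62.8 and 27.9 FPKM, with Slc6a14 at 204, 217 and 126 FPKM. The division genes Mki67 and Top2a held most of this sum in every library. Neutrophil markers summed to 2.21 to 2.86 FPKM in Control, 60.3 to 287 FPKM in DSS and 4.41 to 43.3 FPKM in GsMTx4, beside the rise of Slc3a2. Colonocyte markers summed to 1272 to 1840 FPKM in Control, 1760 to 2564 FPKM in DSS and 1182 to 1466 FPKM in GsMTx4. Members of that list went both ways: 1 rose and 1 fell in DSS against Control, 2 rose and 2 fell in GsMTx4 against DSS, and Aqp8, a water channel, had 242 to 431 FPKM in Control, 89.0 to 114 FPKM in DSS and 224 to 493 FPKM in GsMTx4. Hepatocyte markers summed to 19.99 to 25.7 FPKM in Control, 2.39 to 5.92 FPKM in DSS and 30.7 to 48.6 FPKM in GsMTx4, with Alb at 13.2 to 14.6 FPKM in GsMTx4 and at most 1.22 FPKM elsewhere. The sums of Control and DSS were nearly all Ttr (19.1 to 24.5 and 2.08 to 5.19 FPKM), while Apoa1, Serpina1a and Fgb were at or under 0.122 FPKM in both groups. The part of these cell types in the transporter values was not tested.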

How the data were processed

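Total RNA from mouse colon was sequenced in 9 libraries, and their titles gave the group and replicate number. The authors deposited 1 table of FPKM values for 35315 genes. The submitters' processing notes name cutadapt, FastQC and the build GRCm38. Which aligner and FPKM program were used is not given in the sources. FPKM values are not counts, so the depth is unknown and no counting interval is given. Symbols and positions came from the GENCODE M21 annotation for 35196 genes.

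Genes at 1 FPKM or more in at least 3 of 9 libraries (14360) were tested on log2(FPKM + 1), which understates changes of low genes, with limma 3.58.1 in R 4.3.3. All 9 libraries entered 1 fit with a mean for each group, which left 6 residual degrees of freedom, and an empirical Bayes step with trend. Tests were two-sided with Benjamini-Hochberg adjustment, and the threshold was an adjusted p of 0.05. The fit was tested on simulated data.

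Named genes are every passing member, a list of carriers given whatever their p, the most abundant members of each family, and the 3 genes with the smallest p of each pathway list in each of the comparisons with DSS. Members and lists were chosen with earlier results of these data known. Genes whose symbols end in os are given apart, and some items are not reported here. Promoter windows came from RefSeq on GRCm38.p6 and matched 49 of 65 members and 22 of the 30 tested members. Figures used matplotlib 3.10.9 in Python 3.11.15. Alternatives were other pseudocounts, filters and scalings, the compared groups only, no trend, the replicate number as a block and each library left out. Leaving out 3 libraries together was added after seeing the data.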

Additional observations from a re-analysis of the deposited data

How the results depend on the processing

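The rise of Slc36a1 in GsMTx4 against DSS passed under every alternative run. Transporter counts moved by over 1.5 times in these cases. With pseudocounts of 0.1 and 0.01, 1 gene was lower in GsMTx4 against DSS (2 in the text). With no filter, 0 were lower in DSS against Control, and 1 was higher and 1 lower in GsMTx4 against DSS. At a mean FPKM of at least 5, 1 of 11 tested was lower in DSS against Control. TPM gave 0 higher in DSS against Control and 0 lower in GsMTx4 against DSS, and the same comparison of DSS with Control had 5 higher with median-of-ratios scaling and 6 with quantile normalization. Fitting the compared groups only gave 4 lower in DSS against Control, and 1 higher and 1 lower in GsMTx4 against DSS. Leaving out Control 1, DSS 2 and GsMTx4 3 together, chosen after seeing the data, gave 1 higher in DSS against Control and 1 lower in GsMTx4 against DSS. Without 1 library at a time, 0 to 4 were higher and 0 to 4 lower in DSS against Control, 1 to 2 and 0 to 2 in GsMTx4 against DSS, and 0 to 1 and 0 in GsMTx4 against Control.

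Same-numbered libraries correlated at -0.233 to 0.0998, so the numbers are not taken as pairs. With the replicate number as a block, 0 were lower in DSS against Control, and 1 was higher and 0 lower in GsMTx4 against DSS. Pathway counts with no filter in GsMTx4 against DSS were 0 for mTORC1 sensing, 1 for other transporters and 5 for enzymes. Leaving out 1 library gave 3 to 7 and 3 to 5 for the amino acid response list, 1 to 1 and 0 to 1 for mTORC1 sensing, 2 to 5 and 1 to 2 for other transporters and 7 to 14 and 4 to 10 for enzymes, the first range for DSS against Control and the next for GsMTx4 against DSS, and 0 to 1 for enzymes in GsMTx4 against Control. Of 37 fold changes of tested members followed by name, not all of them printed above, 3 changed sign under the alternatives, and none of the 3 was called. Slc3a2 did so in GsMTx4 against Control with TPM (-0.00936), and Slc7a7 there without 1 library (-0.0508 to 0.27). Slc1a4 did so in GsMTx4 against DSS without 1 library (-0.29 to 0.27, with -0.25 without DSS 2) or without the 3 libraries (-0.0202). Over 50 further fold changes of tested members, 78 values under the alternatives had the opposite sign, by at most 0.435, and none was called. The causes were not tested. The depth is unknown, and 3 libraries per group limit the precision.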
